A study of Mus musculus with 8 samples.

Results

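Xenobiotic metabolism is the handling of foreign chemicals and of steroids, bile pigments and retinoids by enzymes that make them soluble enough to leave the cell. Phase 1 enzymes (cytochromes P450, carboxylesterases, aldehyde dehydrogenases) oxidise or cleave the molecule, phase 2 enzymes (glutathione S-transferases, UDP-glucuronosyltransferases, sulfotransferases) attach a polar group to it, and ABC transporters pump the product out. The colonic surface meets drugs, dietary compounds and bacterial products first, and in liver many of these genes are known to follow the clock through the PAR bZIP factors DBP, TEF and HLF. Genes were chosen by symbol: those that begin with Cyp1, Cyp2, Cyp3, Cyp4, Ugt1, Ugt2, Gsta, Gstm, Gstp, Gstt, Gsto, Sult1, Sult2, Ces1, Ces2, Aldh1, Aldh3, Abcb1, Abcc or Abcg2, together with Por and Alas1. Of 14247 genes in the table, 105 matched and 101 had a mean normalised count of at least 10 over the libraries. The 4 left out were Abcb1b (9.99), Cyp2d11 (7.68), Cyp2a12 (7.86) and Ugt2b1 (6.87), and the members just inside were Cyp4f18 (10.2), Ces1c (10.3) and Ces2h (11.5). No Cyp1 gene was analysed here. By role the members were 33 genes of the cytochrome P450 system, 18 glutathione S-transferases, 13 carboxylesterases, 10 ABC transporters, 7 UDP-glucuronosyltransferases, 7 aldehyde dehydrogenases and 5 sulfotransferases, and 8 further genes matched by letters only (Cyp20a1, Cyp27a1, Cyp39a1, Aldh16a1, Aldh18a1, Aldh1l1, Aldh1l2 and Abcb10).

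Bulk RNA-seq was made from colonic epithelial crypts of WT mice at ZT0, ZT6, ZT12 and ZT18 (hours after lights on), with 2 libraries at each time point and 8 in all. The study kept its mice on a C57BL/6 background under a light/dark cycle with free access to food, and mice rest in the light, so ZT0 and ZT6 are called resting phase and ZT12 and ZT18 active phase. The study describes crypts of mice killed at each time point and a larger number of mice per group than there are libraries here. No source used here ties a library to an animal, so p-values measure the spread between libraries, which may be technical. The data are scraped crypt RNA, so fewer cells of a type and less RNA per cell cannot be told apart. Values of a gene in single libraries are normalised counts, with replicate 1 before replicate 2 at each time point.

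Libraries held 14722342 to 25159440 reads in the table. Members took between 0.707% (ZT18 replicate 1) and 1.51% (ZT18 replicate 2) of the normalised counts, and mitochondrial genes between 6.68% (ZT12 replicate 1) and 22.2% (ZT18 replicate 1). Epcam and Krt8, markers of epithelium, were high in all 8 libraries (Epcam 26494 to 33705 normalised counts). The summed smooth muscle markers ranged from 6.95 (ZT0 replicate 1) to 3672 (ZT12 replicate 1) and the fibroblast markers from 3.22 (ZT18 replicate 2) to 2329 (ZT12 replicate 1), with 4 of 5 and 5 of 6 listed genes at 0 in at least 1 library. The B and plasma cell markers ranged from 31.8 (ZT0 replicate 1) to 1422 (ZT0 replicate 2) and the myeloid markers from 23.8 to 1241 in the same libraries. The part of these cells in the members' values was not tested.

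The highest level of any member belonged to Cyp2c55, a P450 that oxidises fatty acids, at 20654 normalised counts per kb of exon. It was followed by the carboxylesterase Ces2c (6519 per kb), the efflux pump Abcb1a, the mouse P-glycoprotein (3645 per kb), the glutathione transferase Gsto1 (3076 per kb), the carboxylesterase Ces2a (2914 per kb) and the phenol sulfotransferase Sult1a1 (2808 per kb). The leading UDP-glucuronosyltransferase was Ugt2b34 (2583 per kb) and the leading aldehyde dehydrogenase was the mitochondrial Aldh1b1 (1784 per kb). Across the libraries, Cyp2c55 read 24572 and 52792 (ZT0), 43146 and 53107 (ZT6), 42244 and 32599 (ZT12) and then 15068 and 66110.3 (ZT18), so that the lowest and the highest library were the pair collected at ZT18. Of the 101 members, 35 differed by less than 2-fold between their lowest and highest library, and 19 differed by more than 10-fold or were at 0 in a library.

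**Figure D1:**
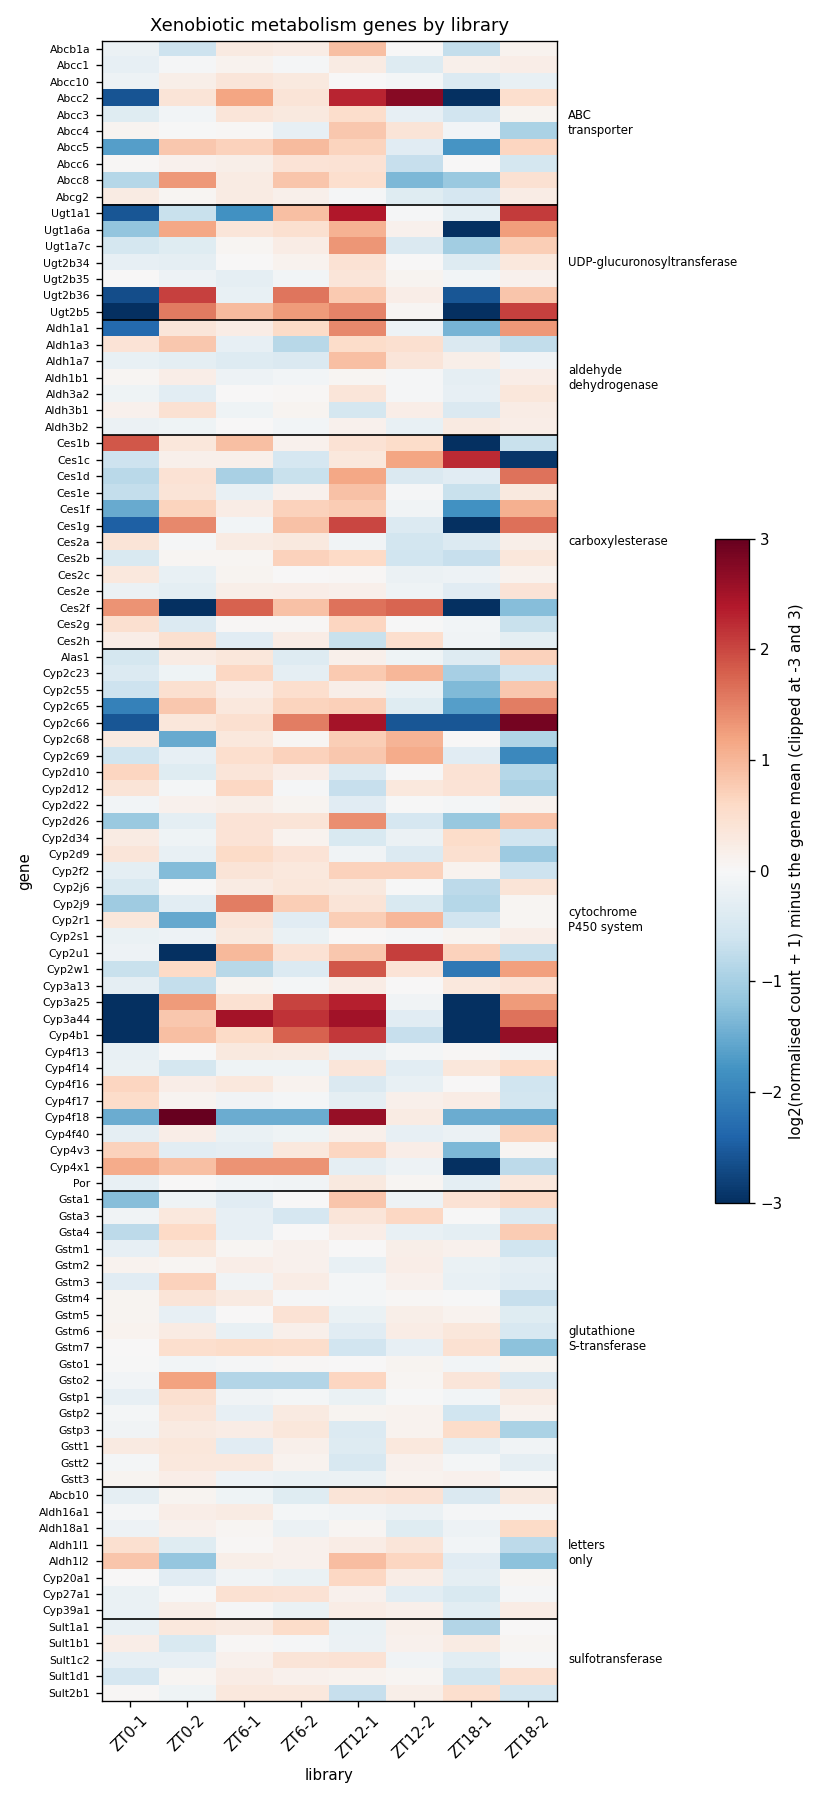
Each row is 1 of the 101 members, grouped by role, and each column is 1 library. Colour is log2(normalised count + 1) minus the gene's mean over the 8 libraries, clipped at -3 and 3. Most glutathione S-transferase and sulfotransferase rows are pale, while blocks of P450, carboxylesterase and glucuronosyltransferase rows are blue in ZT0-1 and ZT18-1.

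Time of day was tested with a 24 h cosine fit in limma over all 13503 genes with a mean of at least 10, on log2(normalised count + 1), a scale that understates changes of low genes. No member passed an adjusted p of 0.05 in the cosine fit, where 0.118% of all genes passed, and the smallest adjusted p of a member was 0.397 (limma). Likewise 0 members passed in the F-test of the time points (0.0889% of all genes), active against resting phase (0.0592%), ZT12 against ZT0 (0.0667%) or ZT18 against ZT6 (0.0444%). In edgeR's quasi-likelihood test on the recovered reads 0 members passed in any of the 5 tests. In DESeq2 1 member passed, Cyp3a13 in the F-test (DESeq2 adjusted p = 0.0492), where 217 of the 13503 genes passed. At an unadjusted p under 0.05, the cosine fit held 12 members (11.9%, against 9.15% of all genes), the F-test 9 (8.91% against 7.03%), the phase comparison 10 (9.9% against 7.61%), ZT12 against ZT0 9 (8.91% against 9.96%) and ZT18 against ZT6 6 (5.94% against 6.71%). All 5 shares lay near the background. The members' median cosine amplitude was 0.30 on the log2 scale, against 0.23 over all genes.

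The unadjusted counts changed by more than 1.5 times when single libraries were left out. The matching shares of all genes were not computed for these settings, so the changes cannot be read as particular to the members. The cosine count fell to 6 on leaving out ZT6 replicate 1, to 7 on leaving out ZT6 replicate 2 or ZT12 replicate 1, and was 25 when ZT18 replicate 2 was dropped. The F-test count was 4 on leaving out any of these first 3 libraries, 16 when ZT18 replicate 1 was dropped and 26 when its partner was. The phase count was 4 on leaving out ZT6 replicate 1 and 23 on leaving out ZT18 replicate 1. The count for ZT12 against ZT0 was 4 on leaving out ZT12 replicate 1, and 14 when either ZT12 replicate 2 or ZT18 replicate 2 was dropped. The count for ZT18 against ZT6 was 3 and 2 on leaving out the first and second ZT6 library, and 20 and 27 on leaving out the first and second ZT18 library.

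In direction, the active-phase mean was higher than the resting-phase mean in 46 of 101 members, where 50.05% of all genes were higher, with a median difference of -0.05 (log2). That median was 0.103 without ZT18 replicate 1 and -0.163 without ZT0 replicate 1, so its sign was set by single libraries. Between ZT12 and ZT0, 64 members were higher at ZT12 (51.4% of all genes, median difference 0.20), and between ZT18 and ZT6, 27 were higher at ZT18 (48.4% of all genes, median difference -0.34). Both libraries of ZT12 lay above both of ZT0 in 26 members (20.7% of all genes) and below in 9 (20.3%). Both libraries of ZT18 lay above both of ZT6 in 10 members (19.2%) and below in 27 (18.8%). In 24 members (7.78% of all genes) ZT0 replicate 1 and ZT18 replicate 1 were the 2 lowest of 8 libraries. In those members ZT12 cannot lie below ZT0, nor ZT18 above ZT6, without overlap. The part of these 2 libraries in the counts of both comparisons was not tested, so the counts are not read as a direction by time of day.

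The spread between libraries of one time point was set beside the spread of the time point means. The pooled SD within time points exceeded the SD of the 4 time point means in 77 of 101 members (76.2%, against 68.3% of all genes). Means of 2 libraries vary less than single libraries even without an effect of time. Most genes are therefore expected on this side, and the count does not weigh time against libraries. The median SD over all 8 libraries was 0.43 for members and 0.32 for all genes. The libraries of one time point were at least 1 log2 unit apart in 32 members at ZT0 (31.7%, against 14.9% of all genes), 5 at ZT6 (4.95% against 7.09%), 21 at ZT12 (20.8% against 10.4%) and 39 at ZT18 (38.6% against 18.1%).

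**Figure D2:**
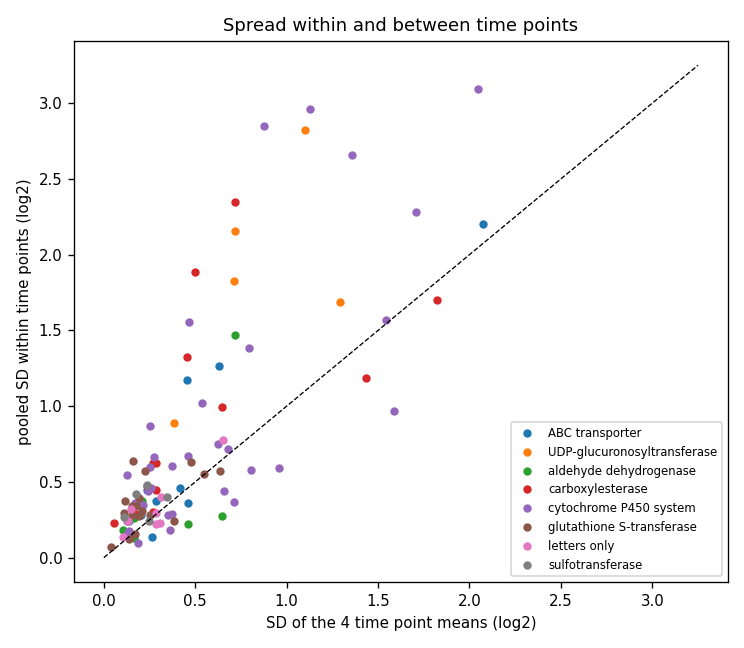
Each point is 1 member, coloured by role. The horizontal axis is the SD of its 4 time point means and the vertical axis is the pooled SD of the 2 libraries within time points, both on the log2 scale. The dashed line marks equality, and 77 of 101 members lie above it. Means of 2 libraries vary less than single libraries even without an effect of time, so most points are expected there.

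A pattern within this spread was shared by 24 members, which had their 2 lowest libraries of 8 in ZT0 replicate 1 and ZT18 replicate 1. That is 23.8% of the members, against 7.78% of all genes, and it was picked out after the values were seen. The 24 members were 9 genes of the P450 system, 4 UDP-glucuronosyltransferases, 3 carboxylesterases, 3 ABC transporters, 3 sulfotransferases, 1 aldehyde dehydrogenase and 1 glutathione S-transferase. The 2 libraries were the highest in 3 members (Sult1b1, Cyp2d10 and Cyp4f17, 2.97% against 5.83% of all genes). The mean of the other 6 libraries was at least 2-fold above the pair in 16 of the 24, with a median of 3.95-fold. The members were picked by this order, so every fold is above 1 by selection. The matching folds over all genes with the order were not computed.

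Aldh1a1, which makes retinoic acid from retinal, read 680.4 and 4413 (ZT0), 3995 and 5136 (ZT6), 9371 and 3068 (ZT12) and then 1301 and 8449 (ZT18), a difference of 5.79-fold between the 6 libraries and the pair. Ces1g, a carboxylesterase of lipid handling, read 100.3 and 1504 (ZT0), 525 and 1019 (ZT6), 2226 and 413 (ZT12) and then 65.8 and 1728 (ZT18) (14.9-fold). The lowest library was ZT0 replicate 1 in Aldh1a1 and ZT18 replicate 1 in Ces1g, and ZT12 replicate 1 was the highest in both. Cyp4b1, a P450 that activates several toxins, read 22.8 and 458 (ZT0), 367 and 841 (ZT6), 1064 and 151 (ZT12) and then 15.4 and 1517 (ZT18) (38.3-fold). Ugt2b5, a steroid and phenol glucuronosyltransferase, read 17.9 and 509 (ZT0), 336 and 421 (ZT6), 483 and 179 (ZT12) and then 8.54 and 722 (ZT18) (33.4-fold). ZT12 replicate 2 was the next-lowest library in both of them. The canalicular pump Abcc2, which exports glucuronides, read 3.97 and 38.2 (ZT0), 66.5 and 38.1 (ZT6), 144 and 196 (ZT12) and then 0 and 41.0 (ZT18). Cyp3a44 and Cyp3a25, of the family that oxidises steroids and drugs, had no read in either of the pair, so that the 6 other libraries were at least 31.5-fold and at least 11.7-fold higher, taking 3 reads per library as the floor. At the other end of the 24 stood Sult1c2 (1.32-fold) and Por (1.27-fold).

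Other measures moved with these libraries. Summed colonocyte markers were 163654 in ZT0 replicate 1 and 174706 in ZT18 replicate 1 and 200682 to 245396 in the other 6. Car1 was low in the pair (25770 and 29320, against 101729 to 156024), while Aqp8 and Ceacam20 were highest there, and the median deviation of the 6 colonocyte markers from their own means was 0.34 and 0.27 (log2) in the pair and -0.24 to 0.28 elsewhere. The markers of that list therefore did not move one way. Summed goblet markers were 297794 in ZT0 replicate 1, within the 257793 to 368314 of the other 6, and 507292 in ZT18 replicate 1. Enteroendocrine markers were lowest in the same pair (2296 and 1401, against 3364 to 6812 in the other 6). Hox genes, which mark position along the gut and were also chosen after the values were seen, differed too: Hoxb6 read 22.8 and 1004 (ZT0), 425 and 569 (ZT6), 634 and 225 (ZT12) and then 12.8 and 869 (ZT18), while Hoxb13 read 6405 and 3235 (ZT0), 3869.8 and 4086 (ZT6), 3538 and 5682 (ZT12) and then 6927 and 2508 (ZT18). Hoxb8 was at 0 in ZT0 replicate 1 and ZT18 replicate 1 and between 72.6 and 398 in the other libraries. The median deviation of the 10 listed Hox genes from their own means was 0.08 and 0.10 (log2) in the pair. It was -0.75 to 0.60 elsewhere. The list mixes Hoxb6 and Hoxb8, lowest in the pair, with Hoxb13, highest there. A median over it can therefore lie near 0 while single Hox genes move opposite ways. Their part in the members' values was not tested. Leaving out ZT0 replicate 1 and ZT18 replicate 1 together was chosen after seeing the data and leaves 1 library at ZT0 and ZT18. The cosine amplitude was then 1.31 for Cyp2c68 and 0.79 for Cyp2d9, against 0.81 and 0.44 with all 8 libraries. These 2 members were picked after their values in this setting were seen.

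**Figure D3:**
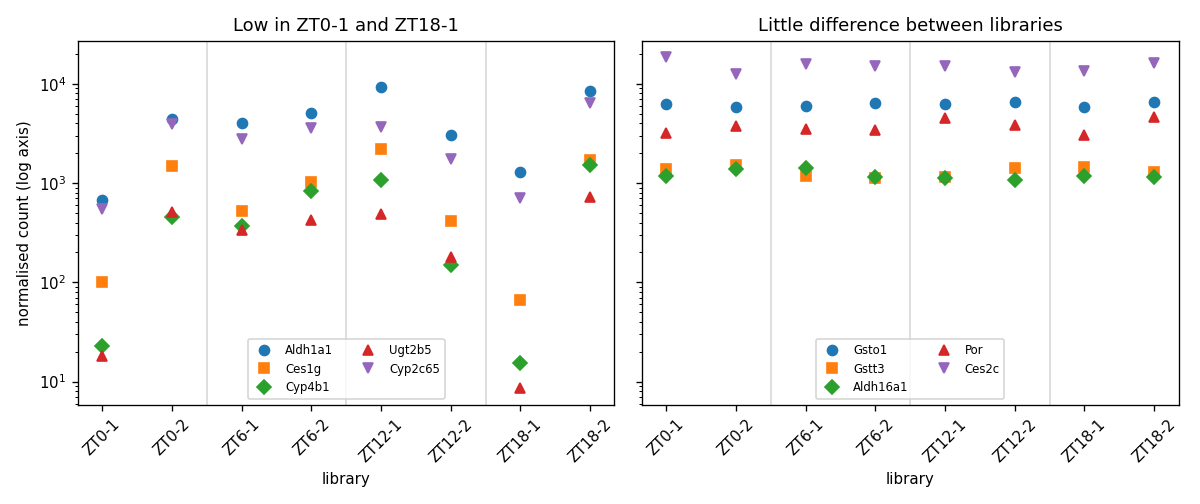
Points are normalised counts (log axis) in each of the 8 libraries, with grey lines separating the time points. On the left, 5 members with their lowest values in ZT0-1 and ZT18-1, for example Ugt2b5 at 17.9 and 8.54 against 179 to 722 elsewhere. On the right, 5 members that differed little, for example Gsto1 at 5859.7 to 6562. Por, on the right, also had its lowest values in ZT0-1 and ZT18-1 (3196 and 3036, against at least 3467 elsewhere).

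Among the members that varied least, Gsto1, an omega-class transferase, read 6214 and 5885 (ZT0), 6041 and 6352 (ZT6), 6314 and 6562 (ZT12) and then 5859.7 and 6562 (ZT18) (SD 0.06, log2). Aldh16a1 (SD 0.14) and Gstt3, a theta-class transferase (SD 0.16), followed. These genes are as abundant as many that varied, with Gsto1 the fourth most abundant per kb.

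Of the 2 genes on which every microsomal P450 depends, Por passes electrons from NADPH to the enzyme and Alas1 makes the first committed intermediate of heme. Por read 3196 and 3759 (ZT0), 3498 and 3467 (ZT6), 4534 and 3851 (ZT12) and then 3036 and 4628 (ZT18), with an active minus resting difference of 0.19 (log2, interval -0.16 to 0.54). Alas1 read 1846 and 3153 (ZT0), 3374 and 2037 (ZT6), 2985 and 2465 (ZT12) and then 2052 and 4344 (ZT18), a difference of 0.18 (interval -0.44 to 0.80). The intervals, at 95%, contain 0 in both, and the difference of Alas1 was -0.01 on leaving out ZT0 replicate 1, -0.00379 on leaving out ZT6 replicate 2 and -0.09 on leaving out ZT18 replicate 2.

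Among P450s, the smallest unadjusted p in the cosine fit belonged to Cyp2f2, which oxidises naphthalene (chr7:27119909-27133660, GRCm38). It read 113 and 56.0 (ZT0), 182 and 173 (ZT6), 225 and 226 (ZT12) and then 150.4 and 90.1 (ZT18). Its fitted amplitude was 0.80 with a peak at 10.5 h, and its limma adjusted p was 0.397. Both ZT12 libraries of Cyp2f2 were the highest of 8, and ZT12 minus ZT0 was 1.49 (log2, interval 0.59 to 2.39, limma adjusted p = 0.351). Cyp2c69 read 62.6 and 80.2 (ZT0), 136 and 156 (ZT6), 167 and 209 (ZT12) and then 75.2 and 24.1 (ZT18) (amplitude 1.11, peak 8.57 h). Its neighbour Cyp2c68 read 1413 and 411 (ZT0), 1472 and 1218 (ZT6), 1946 and 2387 (ZT12) and then 1183 and 631 (ZT18) (amplitude 0.81, peak 10.5 h). For both, the 2 ZT12 libraries were the highest of 8. Cyp4f16, of the fatty acid and leukotriene hydroxylases, ran the other way, reading 3603 and 2630.3 (ZT0), 2863 and 2493 (ZT6), 1698 and 1985 (ZT12) and then 2312 and 1528 (ZT18). All 4 active-phase libraries lay below all 4 resting-phase libraries in Cyp4f16 (difference -0.63, interval -1.01 to -0.24, limma adjusted p = 0.514) and in Cyp4x1 (0 to 9.22 against 20.5 to 28.3), which are the 2 members below without overlap (2.06% of all genes). Cyp2u1, another fatty acid hydroxylase, ranged from 0 (ZT0 replicate 2) to 72.6 (ZT12 replicate 2).

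Cyp3a13, the main Cyp3a gene here (1495 per kb), read 3544 and 2627 (ZT0), 4554 and 4111 (ZT6), 5043 and 4325 (ZT12) and then 5395 and 5749.8 (ZT18). Its active minus resting difference was 0.49 (log2, interval 0.18 to 0.80, limma adjusted p = 0.523). Cyp4f14, a leukotriene hydroxylase, read 3712 and 2959 (ZT0), 3940.0 and 3899 (ZT6), 5538 and 3463 (ZT12) and then 5397 and 6477 (ZT18), a difference of 0.50 (interval 0.12 to 0.88). In both genes the 2 ZT18 libraries lay above both libraries of ZT6.

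**Figure D4:**
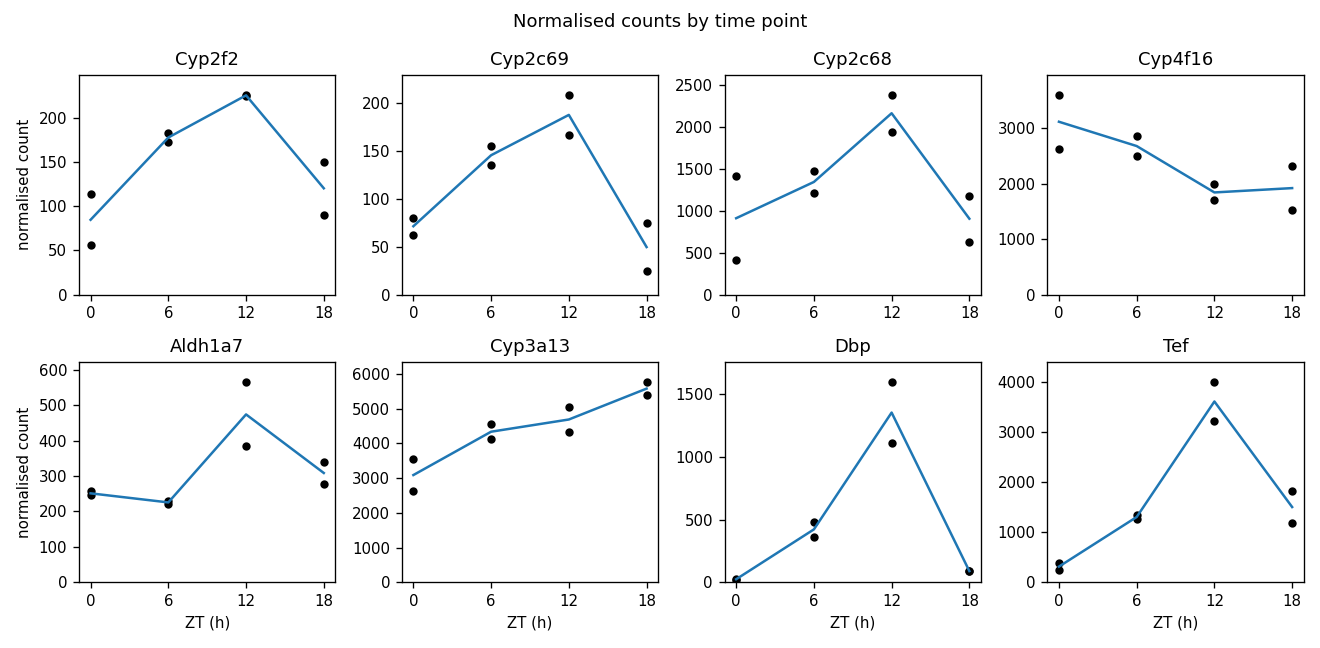
Points are normalised counts of single libraries and lines join the means of 2 libraries at ZT0, ZT6, ZT12 and ZT18, on axes that start at 0. Dbp and Tef, the clock output factors, are highest at ZT12 (1593 and 1113 for Dbp, against at most 482 elsewhere), and so are Cyp2f2, Cyp2c69, Cyp2c68 and Aldh1a7, while Cyp3a13 is highest at ZT18 and Cyp4f16 at ZT0.

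P450s that are neighbours on a chromosome did not move as one. In the Cyp2c genes on chromosome 19, Cyp2c55 and Cyp2c65 were low in ZT0 replicate 1 and ZT18 replicate 1, with Cyp2c65 at 552 and 3898 (ZT0), 2791 and 3584 (ZT6), 3659 and 1734 (ZT12) and then 714 and 6458 (ZT18). Cyp2c68 instead had its lowest values in ZT0 replicate 2 and ZT18 replicate 2. Cyp2c66 held few counts (0 to 42.6) and was at 0 in ZT0 replicate 1, ZT12 replicate 2 and ZT18 replicate 1. The windows around the RefSeq starts of 4 of these genes (GRCm38.p6, 250 bases before to 50 after each start) are printed so that the starts of Cyp2c65 and Cyp2c66 can be set beside those of Cyp2c68 and Cyp2c69. Capitals mark the letters TGACNNNGC, an antioxidant response element core, on either strand, which are in the windows of Cyp2c65 and Cyp2c66 and not in the other two.
Cyp2c65, chr19:39060756-39061055, + strand: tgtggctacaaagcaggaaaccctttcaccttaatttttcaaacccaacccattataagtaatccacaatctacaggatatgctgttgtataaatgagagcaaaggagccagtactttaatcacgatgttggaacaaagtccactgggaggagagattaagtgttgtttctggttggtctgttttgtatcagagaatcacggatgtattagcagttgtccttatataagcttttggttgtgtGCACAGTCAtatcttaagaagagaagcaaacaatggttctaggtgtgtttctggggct
Cyp2c66, chr19:39113648-39113947, + strand: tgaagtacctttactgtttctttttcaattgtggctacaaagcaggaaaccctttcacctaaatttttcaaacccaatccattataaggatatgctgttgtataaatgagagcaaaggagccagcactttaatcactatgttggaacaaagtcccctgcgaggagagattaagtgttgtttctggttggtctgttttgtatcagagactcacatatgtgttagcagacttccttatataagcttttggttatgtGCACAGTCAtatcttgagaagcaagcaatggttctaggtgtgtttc
Cyp2c68, chr19:39741052-39741351, - strand: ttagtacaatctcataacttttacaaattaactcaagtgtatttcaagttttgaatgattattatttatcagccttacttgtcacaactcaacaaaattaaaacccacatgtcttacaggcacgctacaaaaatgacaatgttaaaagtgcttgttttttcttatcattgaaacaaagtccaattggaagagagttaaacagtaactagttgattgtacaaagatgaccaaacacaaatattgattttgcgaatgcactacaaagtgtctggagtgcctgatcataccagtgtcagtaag
Cyp2c69, chr19:39886720-39887019, - strand: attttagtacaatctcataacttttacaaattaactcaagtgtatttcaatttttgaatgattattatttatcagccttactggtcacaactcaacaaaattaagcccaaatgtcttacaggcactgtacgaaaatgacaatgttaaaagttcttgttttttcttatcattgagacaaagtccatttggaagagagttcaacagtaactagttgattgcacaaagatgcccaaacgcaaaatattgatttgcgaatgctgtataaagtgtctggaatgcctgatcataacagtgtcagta

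In global alignments Cyp2c65 and Cyp2c66 shared 256 of 300 bases (85.3%) and Cyp2c68 and Cyp2c69 shared 277 (92.3%), while pairs across the 2 groups shared 52.3% to 55.3%. The antioxidant letters occurred in 14 of 102 member windows (13.7%), near the 12.4% of all 32851 RefSeq windows of this length. Cyp2c55, also low in ZT0 replicate 1 and ZT18 replicate 1, was not among the members found to hold them. A link between the letters and the values was not tested. The genes belong to 1 subfamily, how the counting treated reads that match several genes is not given in the sources used here, and their exon identity was not measured, so each value is uncertain to that extent.

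In the Cyp2d genes on chromosome 15, Cyp2d26 was low in ZT0 replicate 1 and ZT18 replicate 1 (208 and 203, against 315 to 1191 elsewhere). Cyp2d34, Cyp2d10, Cyp2d12 and Cyp2d9, which lie within the same region, had higher values in replicate 1 than in replicate 2 at ZT0 and at ZT18, with Cyp2d34 at 8169.6 and 6283 at ZT0 and 10010.5 and 4625 at ZT18. Cyp2d22 varied little (SD 0.17, log2). Exons of Cyp2d9, Cyp2d10 and Cyp2d12 overlap other annotated genes on the same strand, so their counts share uncertainty.

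Carboxylesterases hydrolyse esters, including prodrugs and lipids, and split into 2 clusters on chromosome 8. The 6 Ces1 genes (chr8:93056728-93337308) had a median SD of 1.29 (log2) over the libraries, and the 7 Ces2 genes (chr8:104734003-105021178) one of 0.42. Ces2c read 18589 and 12676 (ZT0), 15758 and 14976 (ZT6), 15159.7 and 13180.2 (ZT12) and then 13387 and 16111 (ZT18) (SD 0.18), and Ces2e 3653 to 6151. Ces2f was the exception, with 0 to 27.1 counts. Ces2a read 8826 and 6502 (ZT0), 7935 and 8232 (ZT6), 6216 and 4617 (ZT12) and then 5052 and 7614 (ZT18), an active minus resting difference of -0.44 (interval -0.85 to -0.03, limma adjusted p = 0.646).

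**Figure D5:**
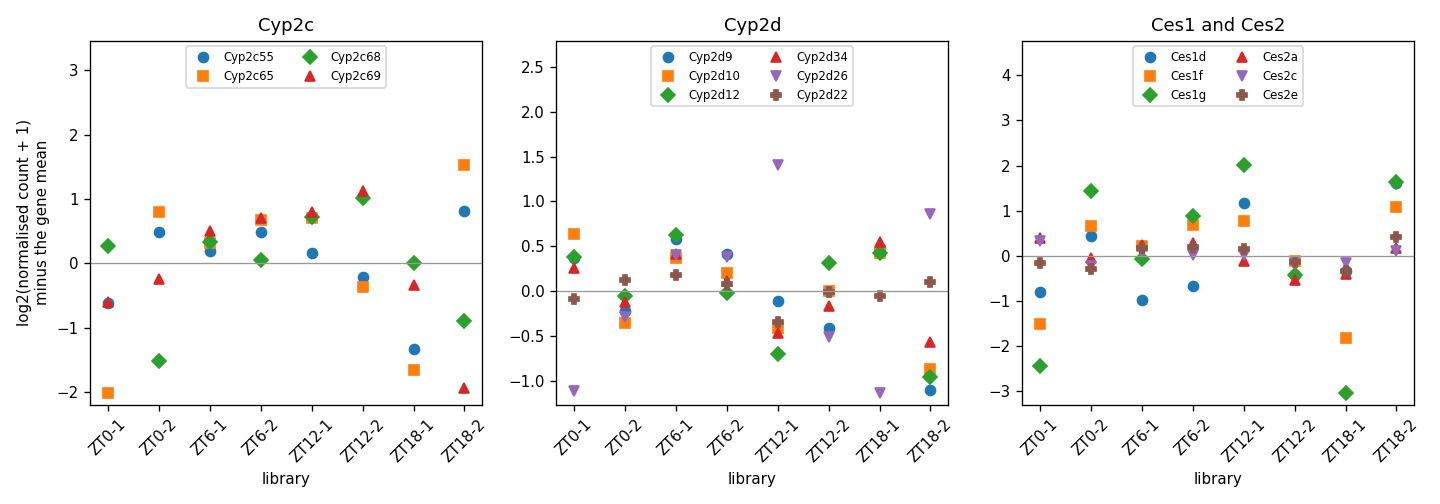
Points are log2(normalised count + 1) minus the gene's mean over the 8 libraries, for Cyp2c, Cyp2d and Ces genes. Cyp2c65 and Cyp2c68 go opposite ways in ZT18-2, Cyp2d26 goes opposite to Cyp2d9, Cyp2d10, Cyp2d12 and Cyp2d34 in ZT18-2, and Ces1f and Ces1g range more widely than the plotted Ces2a, Ces2c and Ces2e.

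The Ces1 genes were also the members whose start windows held the D-box TTATGTAA, the site bound by the PAR bZIP factors. Among 81 members matched to RefSeq windows, 4 held it (Ces1b, Ces1c, Ces1e and Ces1g), in 5 of 102 windows (4.90%), against 0.938% of all 32851 windows. These genes are neighbours of one family and are not independent, and the windows of Ces1b and Ces1c shared 85% of their bases. The E-box CACGTG occurred in 5 of 102 windows (4.90% against 7.15% of all). The 4 D-box windows are shown, with the D-box in capitals.
Ces1b, chr8:93079891-93080190, - strand: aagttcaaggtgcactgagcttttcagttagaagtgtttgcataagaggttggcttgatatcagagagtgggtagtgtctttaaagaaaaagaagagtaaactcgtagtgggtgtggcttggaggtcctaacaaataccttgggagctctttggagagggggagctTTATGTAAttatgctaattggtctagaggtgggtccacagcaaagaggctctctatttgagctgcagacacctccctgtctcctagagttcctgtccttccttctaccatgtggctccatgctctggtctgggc
Ces1c, chr8:93131234-93131533, - strand: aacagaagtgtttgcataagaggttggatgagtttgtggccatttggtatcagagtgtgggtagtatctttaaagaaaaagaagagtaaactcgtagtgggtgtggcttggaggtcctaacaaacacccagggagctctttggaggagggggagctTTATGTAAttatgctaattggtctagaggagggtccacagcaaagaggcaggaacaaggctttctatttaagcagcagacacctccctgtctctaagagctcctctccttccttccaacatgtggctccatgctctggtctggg
Ces1e, chr8:93229570-93229869, - strand: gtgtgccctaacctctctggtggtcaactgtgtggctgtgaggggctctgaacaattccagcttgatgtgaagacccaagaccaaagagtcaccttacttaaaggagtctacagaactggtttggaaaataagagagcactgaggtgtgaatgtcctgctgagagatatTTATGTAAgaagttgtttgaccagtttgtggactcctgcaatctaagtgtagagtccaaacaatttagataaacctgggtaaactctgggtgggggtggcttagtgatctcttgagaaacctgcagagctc
Ces1g, chr8:93337160-93337459, - strand: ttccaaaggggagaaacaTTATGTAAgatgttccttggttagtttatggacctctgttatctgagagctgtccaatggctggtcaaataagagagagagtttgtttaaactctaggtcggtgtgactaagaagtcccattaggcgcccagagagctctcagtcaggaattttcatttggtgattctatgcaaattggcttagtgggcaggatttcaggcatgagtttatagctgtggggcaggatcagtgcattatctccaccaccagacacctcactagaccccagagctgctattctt

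None of the 4 passed the cosine fit. Ces1e read 166 and 360.0 (ZT0), 234 and 298 (ZT6), 503 and 267 (ZT12) and then 172 and 334 (ZT18) (amplitude 0.30), and Ces1b and Ces1c held only 0 to 41.7 and 0 to 35.0 counts. Ces1d, without the letters, read 542 and 1283 (ZT0), 480.5 and 597 (ZT6), 2121 and 706 (ZT12) and then 754 and 2914 (ZT18).

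Among aldehyde dehydrogenases, Aldh1a7 read 257 and 245 (ZT0), 230.4 and 221 (ZT6), 565 and 384 (ZT12) and then 340.1 and 277 (ZT18). It was the 1 member with all 4 active-phase libraries above all 4 of the resting phase (2.26% of all genes), by 0.67 (log2, interval 0.26 to 1.07, limma adjusted p = 0.514). Aldh1a1, its neighbour on chromosome 19 and a close relative, did not share this order.

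Among the phase 2 enzymes, the median SD over the libraries was 0.30 (log2) for the 18 glutathione S-transferases, 0.36 for the 5 sulfotransferases and 1.53 for the 7 UDP-glucuronosyltransferases. In the other classes it was 0.34 for the 7 aldehyde dehydrogenases, 0.45 for the ABC transporters, 0.54 for the carboxylesterases and 0.69 for the P450 system, so both phases held classes with a low spread. Of the most abundant members of their families, Gstm1 ranged from 1886 to 3602, Gsta4 from 305 to 891 and Sult2b1 from 411 to 935. Gstp1, the pi-class transferase, read 3096 and 5143 (ZT0), 3416 and 3576 (ZT6), 3200.3 and 3680.1 (ZT12) and then 3507 and 4366 (ZT18). Gsta1, an alpha-class transferase, read 47.7 and 106 (ZT0), 91.2 and 116 (ZT6), 208 and 104 (ZT12) and then 157 and 179 (ZT18), an active minus resting difference of 0.87 (interval 0.12 to 1.61, limma adjusted p = 0.646). Gstm7 differed by -0.80 (interval -1.58 to -0.02), with 1 active-phase library (ZT18 replicate 1, 221) within the resting range. Sult1a1 read 3479 and 5065 (ZT0), 4881 and 6015 (ZT6), 3575 and 4525 (ZT12) and then 2217 and 4095 (ZT18) (amplitude 0.42, peak 5.72 h). Both ZT18 libraries lay below both of ZT6 in Sult1a1.

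The Ugt1 locus on chromosome 1 joins variable first exons to shared later exons, so that reads in the shared part cannot be assigned to 1 gene. Ugt1a1, which conjugates bilirubin, read 3.97 and 17.7 (ZT0), 7.39 and 54.4 (ZT6), 154 and 27.7 (ZT12) and then 23.1 and 125 (ZT18), with a phase difference of 2.07 (interval 0.09 to 4.06) at few counts. Ugt1a7c read 823 and 925 (ZT0), 1241 and 1374 (ZT6), 2956 and 881 (ZT12) and then 569 and 1973 (ZT18). Ugt2b34 was steadier, at 8441 to 14778 over the 8 libraries (SD 0.28), and carried most of the glucuronosyltransferase counts.

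Of the transporters, Abcb1a read 16694 and 12302 (ZT0), 22678 and 21920.1 (ZT6), 35383 and 18968 (ZT12) and then 11492 and 20362 (ZT18) (amplitude 0.51, peak 9.84 h, limma adjusted p = 0.538). ZT12 replicate 1, the library with the most smooth muscle and fibroblast marker counts, gave its highest value, and the part of those cells in it was not tested. Abcc10, a pump of the multidrug resistance protein family, read 742 and 936 (ZT0), 1059.5 and 1019 (ZT6), 829.6 and 796 (ZT12) and then 625 and 713 (ZT18) (phase difference -0.34, interval -0.63 to -0.04). Abcg2, the breast cancer resistance protein, ranged from 1379.9 to 2310.0 and Abcc3, the basolateral pump of conjugates, from 3777 to 8018.

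Genes that control or feed the pathway were taken from lists. Of 3 genes tested in the list of PAR bZIP factors and Nfil3, Dbp and Tef passed 4 of the 5 tests, all but ZT18 against ZT6. Dbp read 26.8 and 21.5 (ZT0), 482 and 361 (ZT6), 1593 and 1113 (ZT12) and then 89.7 and 88.5 (ZT18) (amplitude 3.07, peak 10.6 h, limma adjusted p = 4.01e-05). Tef read 237 and 389.9 (ZT0), 1259 and 1354 (ZT6), 4001 and 3239 (ZT12) and then 1830.2 and 1182 (ZT18) (amplitude 1.78, peak 12.2 h, limma adjusted p = 0.00438). Nfil3, the repressor of the same sites, read 156 and 180.0 (ZT0), 59.1 and 79.4 (ZT6), 17.8 and 26.5 (ZT12) and then 144 and 228 (ZT18), with a ZT12 minus ZT0 difference of -2.89 (limma adjusted p = 0.0596). Hlf was not analysed here.

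Of the 12 xenobiotic sensors and partners tested, 0 passed in any of the 5 tests (limma), and 7 of 12 were higher in the active phase. At an unadjusted p under 0.05 the list held 1 gene in the cosine fit (9.15% of all genes), 0 in the F-test (7.03%), 1 for phase (7.61%), 4 at ZT12 compared with ZT0 (9.96%) and 0 at ZT18 compared with ZT6 (6.71%). The 4 were the nuclear receptors Rxra (0.47 on the log2 scale), Ppara (1.85), Vdr (0.42) and Rxrb (-0.44), and Rxra was the 1 in the cosine fit and for phase, all named after their values were seen. Nr1i2, the pregnane X receptor, ranged from 1471 to 1844, and Nr1i3, the constitutive androstane receptor, from 0 to 16.1. Ahr, the aryl hydrocarbon receptor, ranged from 162 to 349 and Nfe2l2, the regulator NRF2, from 2030.2 to 4389.8. None passed among 15 electron transfer and heme genes, 21 other phase 1 enzymes, 12 cosubstrate genes, 11 other conjugating enzymes, 12 other drug transporters or 11 aryl hydrocarbon receptor and NRF2 targets, with 0, 5, 0, 1, 1 and 0 under an unadjusted p of 0.05 in the cosine fit (limma). The 21 other phase 1 enzymes held 5 such genes in the F-test and in ZT12 against ZT0 as well, and 3 for phase and for ZT18 against ZT6. Those 5 in the cosine fit, named after their values were seen, were Ephx2, Maoa, Xdh, Akr1c14 and Akr7a5. The summed cosubstrate genes, which make UDP-glucuronate, glutathione and the sulfate donor, were lowest in ZT18 replicate 1 (28851) and ZT0 replicate 1 (33255) and 43150.2 to 54896 in the other libraries.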

How the data were processed

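The authors aligned paired-end reads with STAR to GRCm38 (mm10) and deposited signal values that are gene read counts divided by 1 size factor per library, as their steps and the use of DESeq2 in the methods show. The gene annotation, counting tool and strand use are not given in the sources used here. The deposited table also holds the authors' mean and, on a log2 scale with p-values and a test score, the authors' own comparisons, which were not used. The values were whole multiples of 1 step (within 0.01 of a read, 100% in each library), which gave back reads, with 14722342 to 25159440 per library. Fitted intervals reflect the spread between libraries, and the floor of 3 reads covers counting error only.

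Genes with a mean of at least 10 (13503) were fitted with limma 3.58.1 (trended eBayes) on log2(value + 1), all 8 libraries in 1 fit, Benjamini-Hochberg over all genes, threshold 0.05. A 24 h cosine, an F-test over 4 time points and 3 contrasts were fitted. edgeR 4.0.16 and DESeq2 1.42.0 were run on the recovered reads, and an exact rank test over 2520 assignments. Scripts were tested on simulated data. Exons and coordinates came from GENCODE M21 (101 of 101 members matched) and sequences from RefSeq (GRCm38.p6). Alignments used Biopython 1.88.

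Named genes were Por, Alas1, the highest per kb in each family, the 10 smallest p in the cosine and phase fits, the 3 largest and 3 smallest SDs, the regulators and any list gene called; others were named after their values were seen. Members and lists were chosen with earlier results of these data known. Exons of 9 members overlap another gene on the same strand and of 19 on the opposite strand. Replicate numbers did not pair libraries: deviations correlated at -0.29 to 0.22 between time points. One regulator of the lists is not reported here.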

Additional observations from a re-analysis of the deposited data

Results flagged for a closer look

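2 single libraries stood apart from the other 3 of their phase, among 74 groups of 4 tested, where chance gives about 1 in 20. Ces1d read 1283 in ZT0 replicate 2, against 480.5 to 597 in the other resting-phase libraries. Gstm7 read 163 in ZT0 replicate 1, against 232 to 238 in the others.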

How the results depend on the processing

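No member passed in the limma fits under other pseudocounts, filters, scalings or an untrended fit, in edgeR, or with any single library left out, for which all 5 counts ranged from 0 to 0. The replicate block gave 0 members called in each test, and it changed no call. Its counts at an unadjusted p under 0.05 were 10, 10, 10, 9 and 7. DESeq2 on recovered reads called 1 member in the F-test, where it called 217 of the 13503 genes. Leaving out ZT0 replicate 1 and ZT18 replicate 1 together was added after seeing the data. The lone ZT0 and ZT18 libraries were then assumed to vary like the other groups, so calls of this setting are not given. The cosine amplitude of Cyp2c68 in it was 1.31. Without ZT0 replicate 2 and ZT12 replicate 1, the libraries with the most immune and muscle marker counts, the unadjusted counts were 7, 4, 5 and 2 in the first 4 tests. edgeR gave 7 in the cosine fit. The exact rank test gave 3 members, where 708 of the 13503 genes were under 0.05, with a smallest adjusted p of 0.463 and a smallest possible p of 0.00952. For the other unadjusted counts of this section the matching shares of all genes were not computed. The median phase difference ranged from -0.163 to 0.103 with a single library left out, crossing 0. Over all genes the cosine fit called 16, 1 without the trend, 12 in edgeR and 189 in DESeq2. The cause of these differences was not tested. The phase difference of Alas1 changed sign without ZT0 replicate 1 (-0.015), ZT6 replicate 2 (-0.00379) and ZT18 replicate 2 (-0.092), over a range of -0.092 to 0.449. Those of Por and of the 10 genes named for phase kept their sign in every alternative that gave a value. The 10 genes were picked for their small phase p in these same libraries, so their kept sign is no separate support. Low counts limit genes such as Cyp4x1 (0 to 28.3).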
